A study of Mus musculus with 2 samples.

Results

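The epithelial oxidases and the inducible nitric oxide synthase were compared between the colons of Villin-Cre and EP4 cKO mice. The set held 10 genes, chosen by name: Duox1, Duox2, Duoxa1, Duoxa2, Nos2, Nox1, Noxo1, Noxa1, Cyba and Cybb. Array probes were assigned to them by RefSeq accession, which gave 13 probes for 9 of the 10 genes, of 22909 genes matched in all. No accession on the arrays matched Duox2 in the gene table used, so Duox2 itself was not analysed here and the DUOX2 system was followed only through its partner Duoxa2. Of the 9 genes, 7 were well above background on both arrays, and Duox1 and Cybb did not reach that mark on either one. Control mice carried Villin-Cre alone. EP4 cKO mice (Villin-Cre; EP4flox/flox) also carried floxed alleles of Ptger4, the gene of the prostaglandin E2 receptor EP4. Both were C57BL/6, and the methods of the study give the age of its mice as 8 weeks. In both groups Cre was made under the Villin promoter, that is, in the epithelium of the gut, so stromal and immune cells were not targeted. RNA of whole colon from 3 pools per genotype was combined and hybridized to 1 one-colour (Cy3) array per genotype.

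These enzymes make reactive oxygen and nitrogen species at the mucosal surface. The dual oxidase DUOX2 releases hydrogen peroxide into the gut lumen and needs the maturation factor DUOXA2 to leave the endoplasmic reticulum; DUOX1 pairs with DUOXA1 in the same way. NOX1 is the NADPH oxidase of the colon epithelium and makes superoxide together with the organizer NOXO1, the activator NOXA1 and the membrane subunit p22phox (Cyba). NOX2 (Cybb) is the oxidase of phagocytes, which shares p22phox with NOX1 and is assembled with partners that include p47phox (Ncf1), p40phox (Ncf4) and the GTPase RAC2. Nos2 encodes the inducible synthase that makes nitric oxide from arginine and is known as a target of interferon and NF-kappaB signaling in macrophages and in inflamed colon epithelium.

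Duox2 and Duoxa2 are neighbours that are read in opposite directions, and so are Duox1 and Duoxa1. The promoter windows of Duoxa2, which had the largest log2 ratio of the set, and of its partner Duox2 are printed because the arrays gave a value for only one gene of this pair, and that of Cybb because it was the only member window with interferon response letters. The windows run from 250 bases before to 50 bases after the annotated start in RefSeq (GRCm38.p6), 5′ to 3′ on the strand of the gene: chr2:122298650-122298949 (+) for Duoxa2, chr2:122298178-122298477 (-) for Duox2 and chrX:9469275-9469574 (-) for Cybb. Capitals mark matches to the letters searched.
Duoxa2: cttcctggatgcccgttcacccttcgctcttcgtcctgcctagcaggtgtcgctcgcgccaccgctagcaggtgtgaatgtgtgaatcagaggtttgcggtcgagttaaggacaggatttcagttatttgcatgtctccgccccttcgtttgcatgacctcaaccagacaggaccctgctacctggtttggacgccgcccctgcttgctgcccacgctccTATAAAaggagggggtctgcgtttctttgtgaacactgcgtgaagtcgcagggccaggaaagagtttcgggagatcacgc
Duox2: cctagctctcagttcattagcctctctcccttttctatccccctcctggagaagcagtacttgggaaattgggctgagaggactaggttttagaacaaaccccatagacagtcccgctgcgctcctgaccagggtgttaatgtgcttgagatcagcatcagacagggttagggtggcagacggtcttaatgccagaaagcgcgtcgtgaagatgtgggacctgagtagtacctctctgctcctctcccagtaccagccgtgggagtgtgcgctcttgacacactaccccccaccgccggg
Cybb: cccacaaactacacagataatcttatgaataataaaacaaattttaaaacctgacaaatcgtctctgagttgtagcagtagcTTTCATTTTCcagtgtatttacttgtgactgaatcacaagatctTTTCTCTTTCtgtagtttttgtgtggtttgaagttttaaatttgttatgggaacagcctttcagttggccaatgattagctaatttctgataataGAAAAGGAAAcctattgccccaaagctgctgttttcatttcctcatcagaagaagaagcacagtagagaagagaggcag
The search covered a gamma-activated site (TTCNNNGAA), the core of the interferon-stimulated response element (GAAA, any 2 bases, GAAA), an NF-kappaB site (GGGA, any base, TTTCC) and a cAMP response element (TGACGTCA) on both strands, and a TATA box (TATAAA) on the strand of the gene. In 9 of the 10 member windows (Nos2 had none in the table), the matches were a TATA box that begins 30 bases before the start of Duoxa2 and 3 interferon response cores in Cybb, none of which overlapped. Among all 32851 promoter windows, 8.32% held this TATA box and 3.44% an interferon response core. The gamma-activated site was in 8.3%, the cAMP response element in 1.79% and the NF-kappaB site in 0.411% of all windows. These matches describe letters in a window and not binding.

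With 1 array per genotype nothing could be tested across mice, so p-values are left out. Signals were scaled as in the methods of the study, to a mean of 2500 after trimming 2% of the probes from either end of an array, and each ratio is EP4 cKO over Villin-Cre on the log2 scale. A value is called higher or lower here when it lies past 2-fold. The scan error beside a ratio is the error that the scanner software estimated for the spots of these 2 arrays, and does not cover differences between mice. Among 4103 genes with several such probes measured on both arrays, the log2 ratios of the probes of a gene spanned 0.24 at the median and 0.81 at the 90th percentile. Ptger4, the targeted gene, had normalized signals of 6227 and 5661 by its brighter probe and of 393 and 592 by its dimmer probe on the Villin-Cre and EP4 cKO arrays, so the labels could not be checked from it. Whether these probes lie in the deleted part is not known from the files. All 13 markers of colon epithelium were well above background on both arrays. The arrays differed in fibroblast markers: all 5 fibroblast markers with a value were lower on the EP4 cKO array, among them the collagen gene Col1a2 (3613 and 111) and Dcn (6006 and 110), and the sum of the 6 listed markers was 13114 and 302. Smooth muscle markers were not lower, with a median log2 ratio of 0.50 over 4 of 5. Fewer cells of a type and less RNA per cell cannot be told apart in whole tissue, and the part of this difference in the results was not tested.

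Of the 7 genes with a value, Duoxa2 and Nos2 were higher and Duoxa1 was lower on the EP4 cKO array, and the 4 genes of the NOX1 complex lay within 2-fold. Thus 3 of 7 were past 2-fold, against 12.9% of the 14668 genes with a value on the arrays (4.89% higher and 7.98% lower). Past 1.5-fold there were 2 higher and 2 lower, against 28.5% of all genes (9.87% higher and 18.7% lower), and past 3-fold 2 higher and 0 lower, against 5.95% of all genes (2.22% higher and 3.74% lower). The median log2 ratio was 0.25 over the 7 genes and -0.10 over all genes. The split of all genes past 2-fold depended on the scaling: 717 were higher and 1171 lower here, 942 and 921 after scaling to the 75th percentile, 906 and 958 with the trimmed mean over all spots, 605 and 394 after normexp with quantile normalization, and 1119 and 707 after loess. Of the member genes, 2 were higher under each of these settings.

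**Figure D1:**
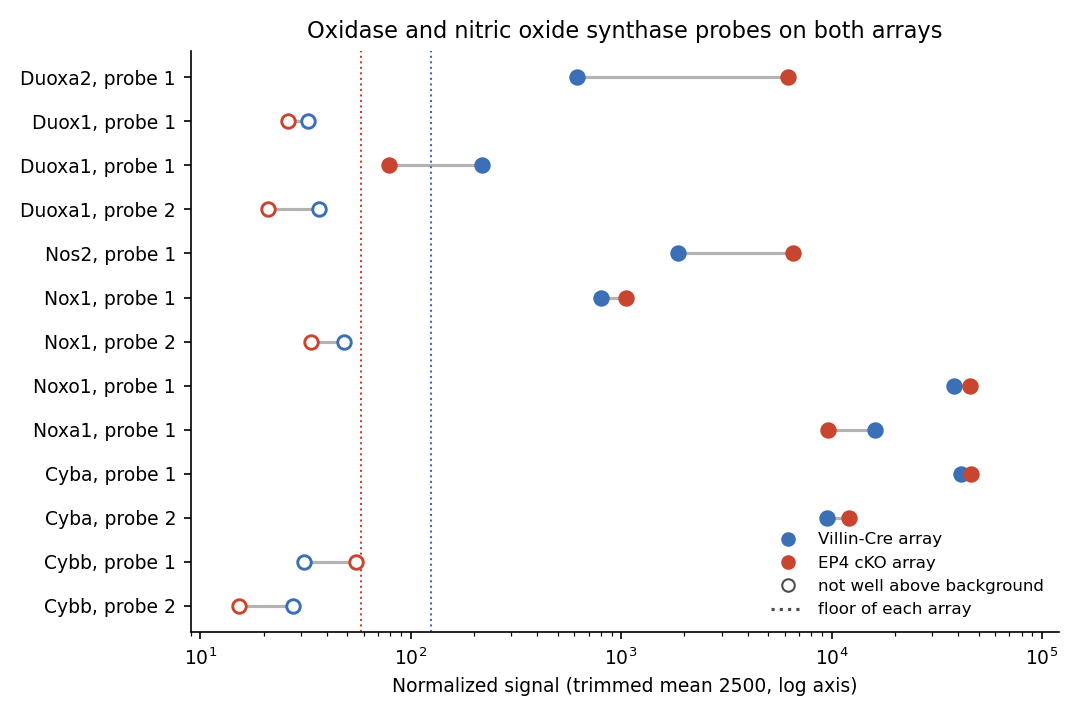
Normalized signal of every probe of the set on the Villin-Cre (blue) and EP4 cKO (red) arrays, on a log axis; open circles were not well above background, and dotted lines are the lowest normalized signals well above background on each array (125 and 57.8). Duoxa2 moves from 616 to 6197 and Nos2 from 1856 to 6536, while the probes of Noxo1 and Cyba hardly move and those of Duox1 and Cybb stay below both lines.

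Duoxa2, the maturation factor of DUOX2, had the largest ratio of the set. Its single probe had a normalized signal of 616 ± 67.9 (scan error) for Villin-Cre and 6197 ± 620 for EP4 cKO. This was a 10.1-fold higher signal, a log2 ratio of 3.33 ± 0.21 (scan error). Of all 14668 genes, 87 (0.593%) had a higher ratio, and among the 1281 genes in the same decile of mean signal, 7 did. The median log2 ratio of that decile was -0.13, with 90% of its genes between -0.85 and 0.76. Under every scaling run the log2 ratio of Duoxa2 lay between 3.098 (normexp with quantile normalization) and 4.37 (scaling to the E1A control spots, chosen after seeing the data).

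Duoxa1, the partner of DUOX1, went the other way at a signal close to background. Its brighter probe had normalized signals of 217 ± 50.8 and 79.2 ± 15.5 (scan error) on the Villin-Cre and EP4 cKO arrays, a log2 ratio of -1.45 ± 0.44, or 2.74-fold lower. Before any correction, the spot had a median brightness of 62 over a local background of 23 for Villin-Cre and of 54 over 22 for EP4 cKO. The difference was within 2-fold after loess (-0.81) and after scaling to the E1A control spots (-0.42). It was 0 after normexp with quantile normalization. In the dimmest decile of the genes, where Duoxa1 lay, the median log2 ratio was -0.40 and 77 of 1281 genes were lower than Duoxa1. The dimmer probe of Duoxa1 (36.7 and 21.0) and the probe of Duox1, the oxidase itself (32.5 and 26.2), were not well above background on either array, so no fold is given for them. The log2 ratio of Duoxa1 minus that of Duoxa2 was -4.79 ± 0.49 (scan error).

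Nos2, the inducible nitric oxide synthase, was the other gene that was higher. Its single probe had a normalized signal of 1856 ± 188 (scan error) for Villin-Cre and 6536 ± 654 for EP4 cKO, which was 3.52-fold higher, a log2 ratio of 1.82 ± 0.21. There were 248 genes (1.69%) with a higher ratio among all genes and 14 among the 1281 of the same signal decile. Nos2, like S100a8 and S100a9 below, is among the inflammatory bowel disease genes that the study picked as altered on these same arrays, so its direction is not independent of that choice. The log2 ratio of Nos2 ranged from 1.74 to 1.97 under the planned settings and was 2.85 after scaling to the E1A control spots. The difference between Duoxa2 and Nos2 was 1.52 ± 0.30 (scan error) on the log2 scale.

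**Figure D2:**
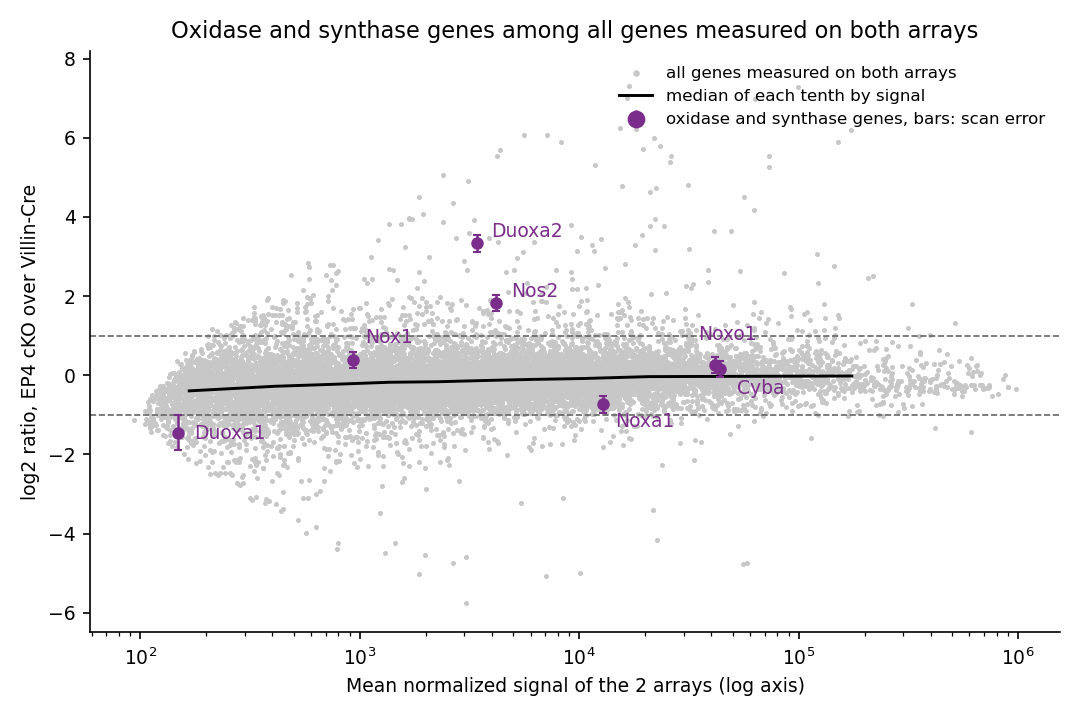
log2 ratio of EP4 cKO over Villin-Cre against mean normalized signal for each gene measured on both arrays (grey), with the median of each signal decile (black line), 2-fold limits (dashed) and the 7 oxidase and synthase genes (purple, bars are scan errors). Duoxa2 (3.33) and Nos2 (1.82) lie above the upper limit, Duoxa1 (-1.45) lies below the lower limit among the dimmest genes, and the genes of the NOX1 complex lie between the limits.

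The NOX1 complex was within 2-fold in all 4 of its genes. For Nox1, the catalytic subunit, the brighter probe had normalized signals of 806 ± 86.6 and 1054 ± 106 (scan error) on the Villin-Cre and EP4 cKO arrays, a log2 ratio of 0.39 ± 0.21. The dimmer probe (48.3 and 33.6) was not well above background. Noxo1, the organizer, had 38035 and 45306, a log2 ratio of 0.25 ± 0.20. Noxa1, the activator, was the only gene of the complex with a lower signal, 16004 ± 1601 and 9588 ± 959, a log2 ratio of -0.74 ± 0.20 or 1.67-fold lower. In its signal decile 80 of 1280 genes had a lower ratio. Cyba, the membrane subunit p22phox, had 41290 and 46189 by its brighter probe (log2 ratio 0.16 ± 0.20) and 9506 and 12133 by its dimmer probe (0.35 ± 0.20), which differed by less than the median spread between probes of a gene. The ratios of Nox1, Noxo1 and Cyba thus lay within 0.22 of each other, and that of Noxa1 was below Nox1 by 1.13 ± 0.29 (scan error). The sign of Noxa1 held under the planned settings (-0.58 to -0.74) and turned after scaling to the E1A control spots (0.30), which raised the median of all genes by 0.97 and brought Nox1 (1.42), Noxo1 (1.29) and Cyba (1.199) past 2-fold.

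Compared with NOX1, the ratio of Duoxa2 was higher by 2.95 ± 0.30 and that of Nos2 by 1.43 ± 0.30 (scan error) on the log2 scale. These differences are within 1 pair of arrays and do not depend on a single factor used to scale each array. They changed under normexp and loess, which do not apply a single factor. After normexp with quantile normalization the log2 ratios were 3.098 for Duoxa2, 1.74 for Nos2 and 0.51 for Nox1. After loess they were 3.48, 1.94 and 0.58. Whether the differences exceed the spread between mice cannot be told from 1 array per genotype.

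**Figure D3:**
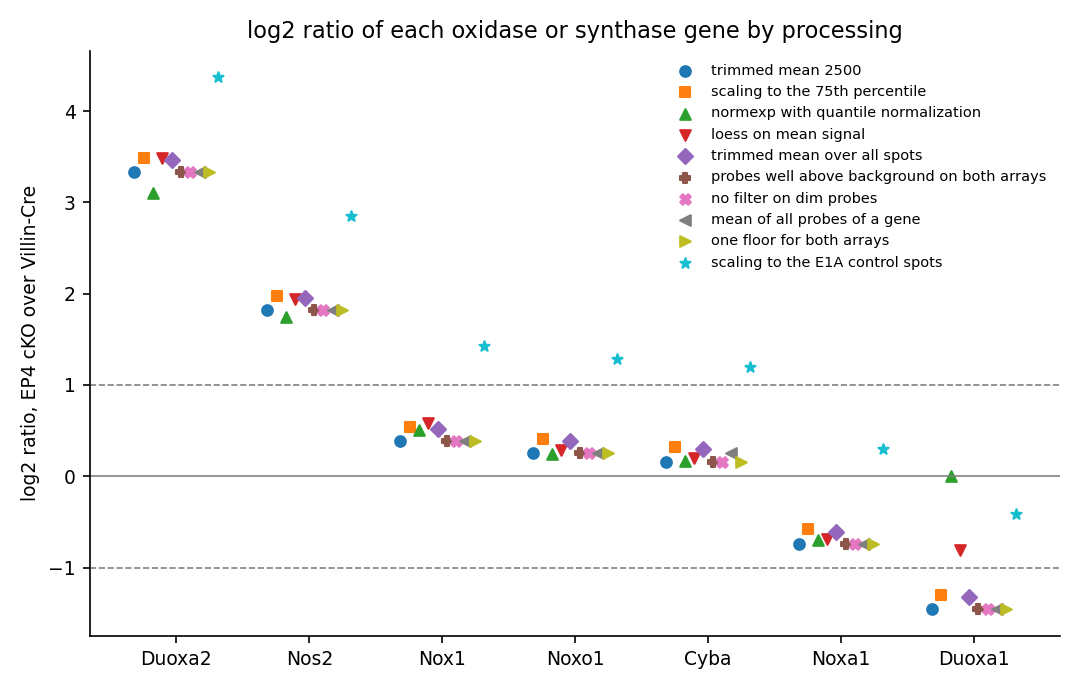
log2 ratio of EP4 cKO over Villin-Cre for each of the 7 genes with a value, with a symbol for each way of processing; solid and dashed lines are at 0 and at 2-fold. Duoxa2 (3.098 to 4.37) and Nos2 (1.74 to 2.85) stay above the upper dashed line, while Duoxa1 ranges from -1.45 to 0.

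The phagocyte oxidase was near background in its catalytic subunit. The probes of Cybb had normalized signals of 31.0 and 54.7 and of 27.6 and 15.3 on the Villin-Cre and EP4 cKO arrays, none well above background, so no fold is given. Both were marked by the software as positive and significant against background for EP4 cKO and not for Villin-Cre, a weaker mark than well above background. Of its partners, the GTPase gene Rac2, which is used by leukocytes, was 2.81-fold higher (328 and 922, log2 ratio 1.49 ± 0.24). Ncf4 (377 and 619, log2 ratio 0.72 ± 0.23) and Cybc1, a chaperone of the NOX2 heterodimer (3226 and 3584, 0.15 ± 0.20), lay within 2-fold. Ncf1 was well above background on the EP4 cKO array only (36.4 and 88.9), below the floor of the Villin-Cre array, so it has no fold above 1. Over the 6 of 7 genes of the NOX2 system with a value, Cyba included, 1 (16.7%) was higher and none lower, against 12.9% of all genes past 2-fold. Their median log2 ratio was 0.39 with Ncf1 set to 0, 0.61 over the 5 genes measured on both arrays, 0.72 with no filter on dim probes and 0.80 after loess.

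Of 12 macrophage and monocyte markers, 9 had a value, 1 (11.1%) was higher as a bound (Cx3cr1, at least 2.04-fold) and none lower, against 12.9% of all genes past 2-fold. Their median log2 ratio was 0.00 with the bounds of C1qa and C1qc set to 0. It was 0.12 over the 6 measured on both arrays and 0.61 after loess. The summed normalized signal of the markers was 65379 and 89383, mostly that of Itgam (49347 and 68598) and Cd14 (8483 and 15583). Csf1r (4874 and 2817, log2 ratio -0.79) and Mertk (1522 and 1041, -0.55) had lower signals within 2-fold. The defining markers Adgre1 (the F4/80 antigen), Fcgr1 and Lyz2 were not well above background for either genotype. Of 8 neutrophil markers with a probe, 4 had a value, with a median log2 ratio of 0.55 that was -0.16 over the 3 measured on both arrays. Of these 4, 2 were higher and none lower: S100a9 was 2.39-fold higher (289 and 689) and S100a8 at least 2.83-fold higher, while Cxcr2, Mmp8, Camp and Ngp were not well above background. The summed neutrophil signal of 109372 and 84904 was mostly that of Csf3r (106452 and 81629). The part of such cells in the values of Nos2, Rac2 and the other genes was not tested.

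Other NADPH oxidases and synthases were also dim. Nox4, an oxidase of stromal cells among others, was well above background on the Villin-Cre array only by its brighter probe (291 and 11.48). As a bound from this probe, it was at least 5.04-fold lower. With the same floor for both arrays, an alternative added after seeing the data, the log2 ratio was -1.22. Fibroblast markers were also lower, but the part of fibroblasts in the value of Nox4 was not tested. Nox3 was not well above background. Nos1, the neuronal synthase, was not well above background (31.0 and 14.3), and Nos3, the endothelial synthase, had 147 and 141, a log2 ratio of -0.06 ± 0.35. Its sign turned with the scaling: it was 0.10 at the 75th percentile, 0.07 with the trimmed mean over all spots, 0.11 after normexp with quantile normalization, 0.54 after loess and 0.98 with the E1A control spots. Of the 10 other NADPH oxidases and shared regulators, 9 had a value, none was higher and Nox4 alone was lower. This was 11.1% past 2-fold, against 12.9% of all genes. Of the 10 other nitric oxide synthases and their partners, 9 had a value and none was past 2-fold.

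Among the genes that supply the nitric oxide synthases, single genes were past 2-fold. Ddah1, which breaks down the methylarginines that inhibit the synthases, was 10.7-fold higher by its brighter probe (206 and 2205, log2 ratio 3.42 ± 0.28, and 2.69 by normexp with quantiles), and its other probe gave a bound of 3.62 on the log2 ratio. Its paralog Ddah2 had a log2 ratio of -0.81 (758 and 431). Oat, which turns ornithine toward glutamate and proline, was 3.20-fold lower (54821 and 17110). Of the 11 genes of arginine supply and use, 10 had a value, 1 was higher and 1 lower, and the median was -0.08. Thus 20% of these 10 were past 2-fold, against 12.9% of all genes (4.89% higher and 7.98% lower). The arginine-making Ass1 (6684 and 6331) and Asl (3589 and 2638) lay within 2-fold, and Arg1 was not well above background. Gch1, the rate-limiting enzyme of tetrahydrobiopterin, a cofactor that nitric oxide synthases need, was 2.42-fold higher (11438 and 27644, log2 ratio 1.27 ± 0.20). It was the only one of the 7 genes of that pathway past 2-fold (14.3%), and the median of the pathway was -0.17. Of the nitric oxide targets and genes of its breakdown, 4 of 8 had a value. Pde5a, which breaks down cyclic GMP, was 3.00-fold lower (9313 and 3104). Cygb was 2.30-fold lower (248 and 108), but within 2-fold by loess (-0.67) and by normexp with quantiles (-0.47). With scaling to the E1A control spots, Pde5a (-0.55) and Cygb (-0.16) lay within 2-fold. Both subunits of soluble guanylate cyclase (Gucy1a1 and Gucy1b1) were not well above background.

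Genes that remove superoxide and peroxide lay within 2-fold in all 17 of the 18 that had a value, with log2 ratios from -0.47 (Sod2) to 0.88 (Gpx7) and a median of 0.16. Gpx2, the glutathione peroxidase of the gut epithelium, had 220355 and 267044, a log2 ratio of 0.28. Of 5 peroxidases that use hydrogen peroxide, Pxdn was at least 2.07-fold higher as a bound (log2 ratio 1.05, and 0.72 after normexp with quantile normalization), Lpo had a log2 ratio of 0.88 (795 and 1460), and Mpo and Epx were not well above background.

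Of 13 factors known to act on Nos2 or Duox2 transcription, 12 had a value, 4 were higher and none lower, with a median log2 ratio of 0.78. Among the interferon factors, Stat2 was 3.67-fold higher (2877 and 10562), Irf9 3.36-fold (4563 and 15348) and Irf1 2.56-fold (29301 and 74994). A dimmer probe of Stat2 was well above background on the EP4 cKO array only and gave no fold above 1, and the mean of both probes was within 2-fold (log2 ratio 0.94). The NF-kappaB subunit genes Nfkb1 (417 and 409) and Rela (22968 and 21675) had log2 ratios of -0.03 and -0.08. Over the 87 other pathway genes together, 75 had a value and 12 (16%) were past 2-fold, 8 higher and 4 lower, with a median of 0.15, against 12.9% and -0.10 over all genes. The lists were chosen with earlier results of these arrays known.

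**Figure D4:**
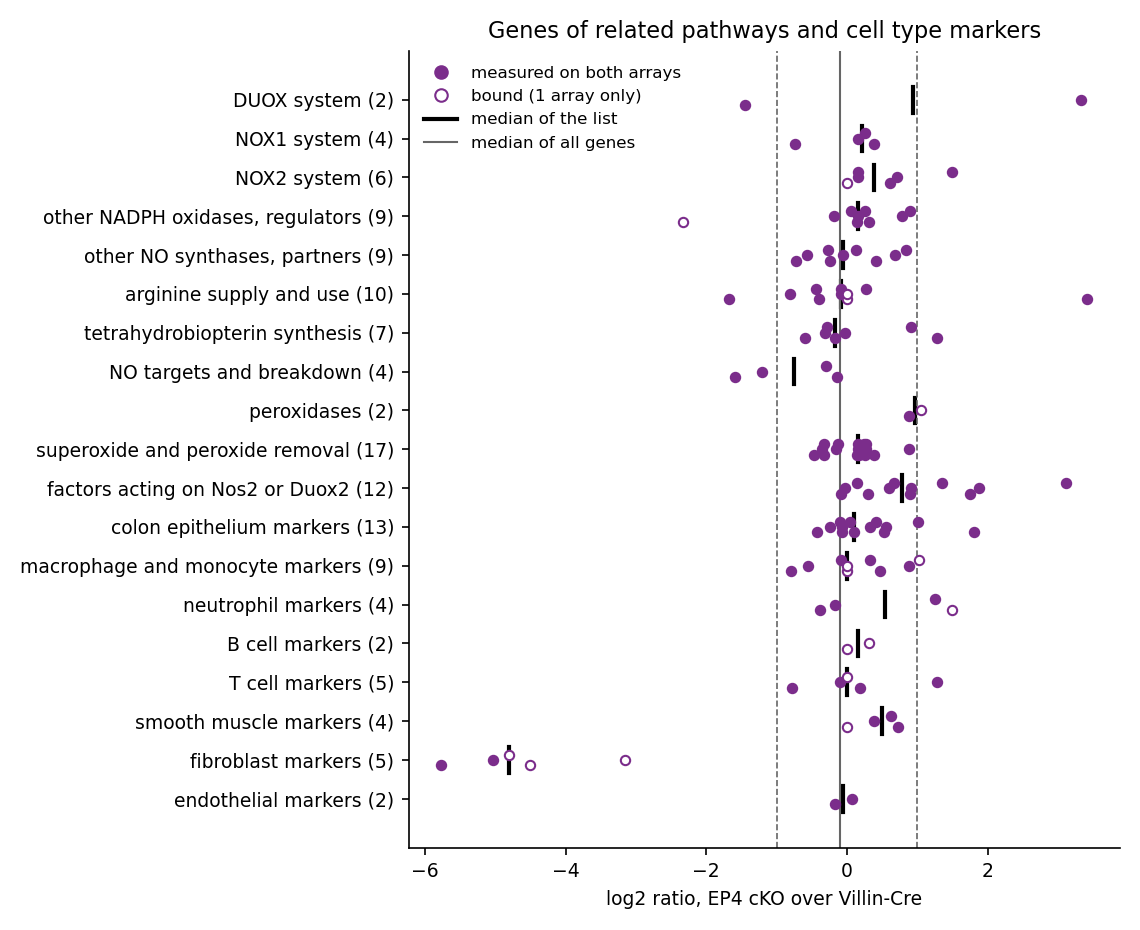
log2 ratio of EP4 cKO over Villin-Cre for the genes of each pathway or marker list with a value (number in brackets); open circles are bounds from genes well above background on 1 array, black bars are list medians, the grey line is the median of all genes (-0.10) and dashed lines are at 2-fold. The points of most lists lie between the dashed lines, with Duoxa2 and Ddah1 far to the right and the fibroblast markers far to the left.

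Epithelial markers were not lower as fibroblast markers were. The 13 markers had a median log2 ratio of 0.10 and a summed normalized signal of 2375140 (Villin-Cre) and 3135610 (EP4 cKO). The largest rises within this sum were those of Krt20 (146575 and 510711) and Aqp8 (236302 and 473610). Other markers had lower signals, such as Car1 (105597 and 78868). Krt20, a keratin of the surface epithelium, was 3.48-fold higher and the water channel gene Aqp8 was just past 2-fold (log2 ratio 1.003), whereas Cdh1 (log2 ratio -0.10), Krt8 (0.05) and Krt18 (0.10) hardly differed. The ratio of Duoxa2 (3.33) exceeded that of each of these epithelial markers, and the ratio of Nos2 (1.82) was close to that of Krt20 (1.80). The part of epithelial cells in the values of Duoxa2 and Nos2 was not tested.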

How the data were processed

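RNA of whole colon was hybridized to Agilent SurePrint G3 Mouse GE v2 arrays. Per the file headers, the authors deposited intensity values written by Feature Extraction 12.0.3.1 (the submitters' processing notes name 11.5.1.1), from which the background had been subtracted and spatial trends removed; the scaling of the methods was repeated here, with factors of 3.45 (Villin-Cre) and 2.68 (EP4 cKO). Without control spots and outlier spots, there were 56593 probes, of which 45.4% and 51.6% were well above background. The brightest probe stood for a gene. For a probe that only 1 array measured, the fold is a bound: the other side was set to the larger of that probe's signal and the array's floor, its dimmest normalized signal well above background (125 and 57.8); a bound not above 1 counted as a log2 ratio of 0. By RefSeq accession, 32989 of 56593 probes (58.3%) matched a gene of GRCm38.p6; the array grid refers to an older build, so no probe position is given. Scan errors of both arrays were combined in quadrature. The members and lists were chosen with earlier results of these data known. All members were named, with the targeted gene, the partner subunits of NOX2, Nos1, Nos3 and Nox4, and up to 4 genes per list past 2-fold; other genes were named after their values were seen. Mean spot signal was not used here, so normexp (offset 50) ran on the median signal. Scaling to the 75th percentile, loess, normexp with quantile normalization, other filters and other fold limits were tried as alternatives. The steps were tested on simulated data. The number of arrays limits the precision. limma 3.58.1 was run in R 4.3.3, and the other steps in Python 3.11.15 (statsmodels 0.14.6, pandas 2.3.3, numpy 2.4.6; figures in matplotlib 3.10.9). A few genes of the lists are counted but not reported here by name. The other experiments of the study were not analysed here.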

Additional observations from a re-analysis of the deposited data

How the results depend on the processing

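No paired analysis was possible because there was 1 array per genotype, and no array could be left out. No probe was matched to Duox2, and Duox1 (-0.31) and Cybb (0.82) had a log2 ratio only with no filter on dim probes, from signals not well above background. The count of 3 member genes past 2-fold was 2 or 3 under the planned settings that kept this limit, 4 past 1.5-fold, 2 past 3-fold, and 5 past 2-fold with scaling to the E1A control spots, which was added once the data had been seen. It also gave a member median of 1.29, log2 ratios of 2.85 for Nos2 and 1.42 for Nox1, 45 of the other pathway genes past 2-fold (12 in the report, and 10 to 18 under the other settings with the filter) and 6100 genes past 2-fold in all (1888 in the report). The number of all genes past 2-fold was 999 after normexp with quantile normalization and 8425 with no filter on dim probes, where 23 other pathway genes were past 2-fold; 4186 genes were past 1.5-fold and 873 past 3-fold. Causes were not tested. Signal over background limits Duox1, Duoxa1 and Cybb.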
